A study of Homo sapiens with 16 samples.

Results

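Nucleated cells display fragments of their own proteins to CD8+ T cells on MHC class I molecules. A proteasome cuts the protein, the TAP transporter carries the peptides into the endoplasmic reticulum, tapasin helps load them, and a polymorphic heavy chain bound to β2-microglobulin takes them to the cell surface. Interferon-γ raises many of these genes and exchanges the catalytic subunits of the proteasome for inducible ones, which gives the immunoproteasome. NLRC5 is the transactivator of the class I genes. It has no DNA-binding domain of its own and acts at their promoters through an enhanceosome of RFX, CREB/ATF and NF-Y proteins. Melanomas can lower class I presentation, which makes the tumor cell harder for T cells to see.

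Expression of 9 genes of this pathway was examined in BRAF inhibitor-resistant (BRAFi-R) melanoma cells treated with corin. Corin combines in 1 molecule an inhibitor of the demethylase LSD1 and an inhibitor of histone deacetylases, and targets the CoREST repressor complex, which holds both enzymes. The genes were chosen by symbol and were found as 9 of the 34228 genes in the table of RNA-Seq counts. They are the heavy chains *HLA-B* and *HLA-C*, the light chain *B2M*, the transporter subunits *TAP1* and *TAP2*, the loading factor *TAPBP* (tapasin), the transactivator *NLRC5*, and the immunoproteasome subunits *PSMB8* and *PSMB9*.

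The cells were 451Lu-R and 1205Lu-R, human melanoma lines selected for resistance to BRAF inhibitors. Each line received 2.5 μM corin or the vehicle DMSO for 24 h, with 2 libraries per group and 8 in all. Neither arm contained the BRAF inhibitor PLX4032. The labels list 8 further samples that did, and they were not analysed here because no counts per library were used for them. Each line stands for 1 tumor, so a difference between the lines is a difference between these lines. Nothing in the labels says that the libraries of a group came from separate cultures, and p-values then measure only the spread between these libraries, which may be technical.

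Totals ran from 9516687 to 11797788 estimated counts per library, and replicates of a group differed little beyond counting noise (chi-square per degree of freedom 1.34 to 1.40). Levels are given as normalized CPM, which are counts scaled to the size of the library. As a check of the labels, 8 melanocyte genes summed to between 12148 and 13041 CPM in the 4 libraries of 451Lu-R. In 1205Lu-R they summed to between 8.59 and 25.9 CPM, and *SOX10* and *TYR* had a count of 0 in all 4 libraries. The dedifferentiation markers *AXL*, *NGFR*, *EGFR* and *WNT5A* summed to 7.66 CPM in each library of 451Lu-R with DMSO and to 1300 to 1311 CPM in 1205Lu-R with DMSO. The melanocyte genes thus identify 451Lu-R and are near absent in 1205Lu-R. Leukocytes carry much class I RNA, and *PTPRC*, the pan-leukocyte marker, had at most 3 counts in any library.

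Class I promoters share short elements, and those found here are shown because the response to corin differed among genes that carry the same element. RefSeq promoters (GRCh38.p14, 250 bases before to 50 after the start) were available for 8 of the 9 genes, with 10 starts. The core of the cyclic-AMP response element (CRE, letters TGACG on either strand) was searched for in the 250 bases before the start. It was found in 6 of the 10 promoters, each of a different gene, and in 21.2% of all 35116 promoters. The windows below run 5′ to 3′ on the gene's strand, with the match in capitals.

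HLA-B, chr6:31357269-31357298, minus strand: tccaggatactcgTGACGcgtccccacttc

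HLA-C, chr6:31272181-31272210, minus strand: tcctgaatactcaTGACGcgtccccaattc

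B2M, chr15:44711429-44711458, plus strand: gcttggagacaggTGACGgtccctgcgggc

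PSMB8, chr6:32844732-32844761, minus strand: ggcccaggtcgtgTGACGtcgacagttgct

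PSMB9, chr6:32854035-32854064, plus strand: ggcggggctgcctCGTCActtgtctcgggg

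TAP2, chr6:32838758-32838787, minus strand: gctgcccgagcccTGACGcccgccctggcc

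The element lay 106 to 102 bases before the start in *HLA-B* and 105 to 101 bases before it in *HLA-C*, in windows that look alike. The interferon-stimulated response element (ISRE, letters TTTC, any 2 bases, then TTTC, on either strand) was found in 4 of the 10 promoters, 1 for each of 4 genes, and in 3.02% of all promoters. Matches that overlap are capitalized as 1 run.

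B2M, chr15:44711366-44711395, plus strand: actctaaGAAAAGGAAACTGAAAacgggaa

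TAP1, chr6:32853816-32853845, minus strand: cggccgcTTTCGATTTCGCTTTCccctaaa

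TAP2, chr6:32838778-32838807, minus strand: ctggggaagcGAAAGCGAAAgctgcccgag

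TAPBP, chr6:33314079-33314108, minus strand: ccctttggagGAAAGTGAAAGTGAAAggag

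The interferon-γ activated sequence GAS (letters TTCNNNGAA) was found in *PSMB8* and *TAP1*, 2 of the 10 promoters, against 6.57% of all promoters. The CCAAT box bound by NF-Y was found in 5 of the 10 against 32.01% of all promoters, and the NF-κB site in 5 of the 10 against 9.96%. A match of letters is a description of the window, and no binding was measured here.

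The genes lie at few places in the genome (GRCh38, GENCODE 44). *HLA-C* (ENSG00000204525.16, chr6:31268749-31272130) and *HLA-B* (ENSG00000234745.11, chr6:31353872-31367067) are neighbors in the class I region of the MHC. *TAP2* (ENSG00000204267.15, chr6:32821833-32838739), *PSMB8* (ENSG00000204264.11, chr6:32840717-32844679), *TAP1* (ENSG00000168394.11, chr6:32845209-32853816) and *PSMB9* (ENSG00000240065.8, chr6:32844136-32859851) form a cluster in the class II region. *TAPBP* (ENSG00000231925.11) lies at chr6:33299694-33314284. *B2M* (ENSG00000166710.20, chr15:44711358-44718851) and *NLRC5* (ENSG00000140853.15, chr16:56989485-57083531) are on other chromosomes.

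Corin did not move the pathway as 1 block. In 451Lu-R, 6 of the 9 genes were higher with corin and 3 lower at an FDR under 0.05, and in 1205Lu-R 4 were higher and 5 lower. The background was high, because 79.9% of the 14530 genes tested in 451Lu-R and 78.3% of the 14563 tested in 1205Lu-R were called, so a call by itself says little about these genes. By direction, 41.3% of the genes tested were called higher and 38.6% lower in 451Lu-R, against 40.4% and 37.8% for 1205Lu-R. The median log2 fold change of the 9 genes was 0.30 in 451Lu-R and -0.44 in 1205Lu-R, against 0.03 over all genes tested in either line. All 9 genes passed the filter on low counts, and their lowest value in any library was 17.0 estimated counts. At the stricter rule of a 4-fold change with an FDR under 0.001, *NLRC5* in 451Lu-R was the 1 gene called higher, where 12.4% of all genes were, and none was called lower, where 2.72% of all genes were. In 1205Lu-R no gene passed this rule in edgeR, although all 9 passed an FDR under 0.05, and 11.3% of all genes were called higher and 1.43% lower.

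**Figure D1:**
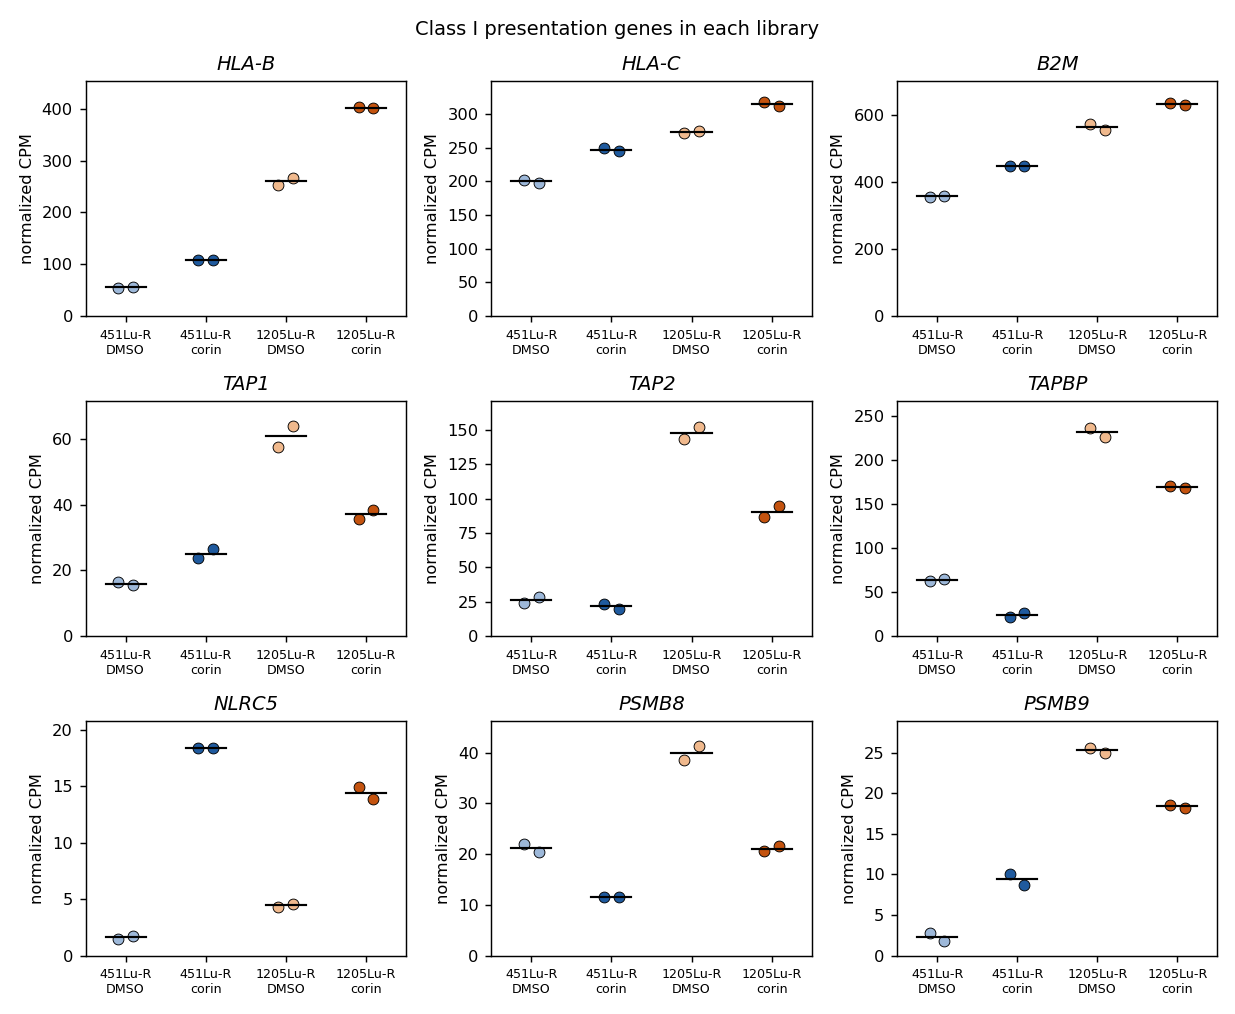
Normalized CPM (vertical axes, linear, from 0) of the 9 genes in each of the 8 libraries, by cell line and treatment; points are libraries and bars the mean of 2. *HLA-B*, *HLA-C*, *B2M* and *NLRC5* were higher with corin in both lines, *TAP2*, *TAPBP* and *PSMB8* lower in both, and *TAP1* and *PSMB9* higher in 451Lu-R and lower in 1205Lu-R.

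The transactivator *NLRC5* rose most in each line. In 451Lu-R its level was 1.49 and 1.77 CPM with DMSO and 18.4 and 18.4 CPM with corin, from 17.0 and 18.0 estimated counts to 209 and 178. In 1205Lu-R it was 4.32 and 4.59 CPM with DMSO and 15.0 and 13.9 CPM with corin. The corin libraries stood clear of the DMSO libraries in both lines, but the share of all genes that did so was not counted. The log2 fold change was 3.47 ± 0.18 (SE) in 451Lu-R (11.1-fold, edgeR FDR 6.41e-13) and 1.71 ± 0.15 in 1205Lu-R (3.26-fold, FDR 1.17e-09). Among all genes tested, *NLRC5* ranked 1066 from the highest log2 fold change in 451Lu-R, and its rank for 1205Lu-R was 1973.

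The heavy and light chains rose in both lines, by much less than their transactivator. In 451Lu-R, *HLA-B* had 54.6 and 56.3 CPM with DMSO and 107.7 and 107.7 CPM with corin. In 1205Lu-R it had 253.5 and 267.0 CPM with DMSO and 402 and 401 CPM with corin. These are log2 fold changes of 0.94 ± 0.05 (FDR 8.54e-13) and 0.64 ± 0.03 (FDR 4.86e-14). The larger log2 fold change was in the line where *HLA-B* began low, while the rise in CPM was larger in 1205Lu-R. No corin library overlapped a DMSO library of its line, which was not counted over all genes.

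In 451Lu-R, *HLA-C* was at 202 and 197 CPM with DMSO and at 249 and 245 CPM with corin, a log2 fold change of 0.28 ± 0.03 (FDR 3.61e-08). In 1205Lu-R it went from 272 and 275 CPM to 317 and 312 CPM, 0.22 ± 0.03 (FDR 1.69e-06). *B2M*, whose protein the HLA-B and HLA-C heavy chains need to fold and reach the surface, moved like *HLA-C*. It went from 356 and 360 CPM to 448 and 449 CPM in 451Lu-R, 0.30 ± 0.02 (FDR 5.75e-10), and from 576 and 557 CPM to 637 and 630 CPM in 1205Lu-R, 0.18 ± 0.03 (FDR 3.17e-06).

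The balance between the chains therefore shifted toward *HLA-B*. Its ratio of estimated counts to *HLA-C* rose from a mean of 0.278 ± 0.011 (SD, n = 2) to 0.436 ± 0.0057 in 451Lu-R and from 0.952 ± 0.029 to 1.28 ± 0.014 in 1205Lu-R. The ratio of *HLA-B* to *B2M* rose from 0.155 to 0.240 and from 0.460 to 0.634, with no overlap between DMSO and corin libraries. The ratio of *HLA-C* to *B2M* was 0.558 ± 0.015 with DMSO and 0.551 ± 0.0072 with corin in 451Lu-R, where the libraries overlapped. It was 0.483 ± 0.014 with DMSO and 0.496 ± 0.0027 with corin in 1205Lu-R, where they did not. The ratios were added after the fold changes had been seen and were not tested. How often ratios of other genes show no overlap was not counted.

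Reads of class I heavy chains are hard to assign, since the chains resemble each other and the lines' own HLA alleles were not analysed here. Of the 31-base words in *HLA-C* transcripts, 10.2% also occur in *HLA-B*, and of those in *HLA-B* 5.56% occur in *HLA-C*. With both genes summed before the fit, the log2 fold change with corin was 0.45 ± 0.03 in 451Lu-R (FDR 3.79e-12) and 0.44 ± 0.03 in 1205Lu-R (FDR 1.45e-12). A further 29.0% of the words of *HLA-B* are shared with the pseudogene *DHFRP2* and 12.6% with the pseudogene ENSG00000271581, which overlap its longer transcripts and had at most 2 counts in any library.

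**Figure D2:**
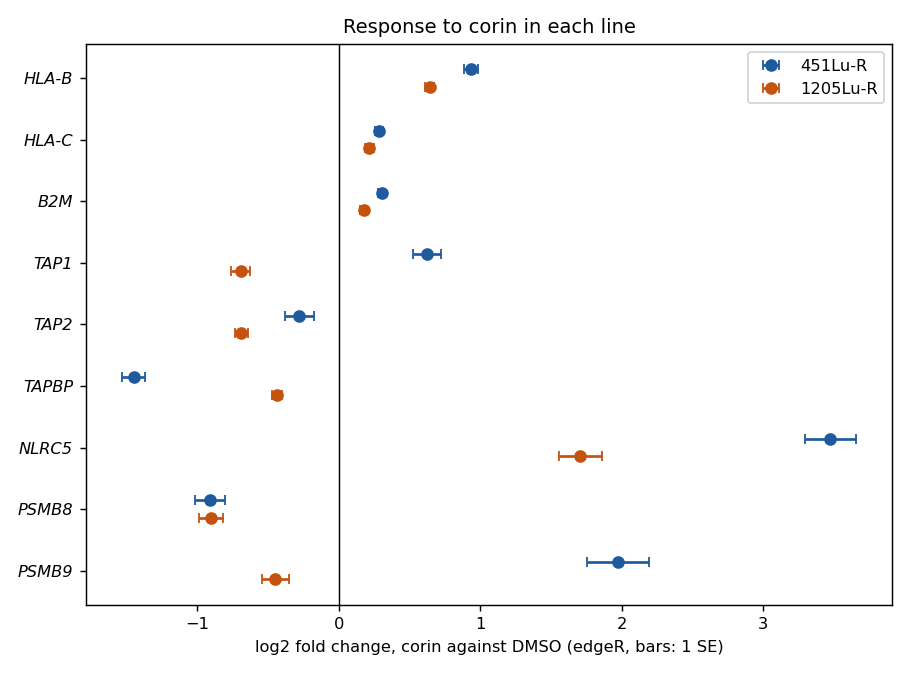
Log2 fold change of corin against DMSO (horizontal axis) for the 9 genes in 451Lu-R (blue) and 1205Lu-R (orange), from edgeR with 2 libraries per group; bars are 1 SE. *TAP1* (0.62 and -0.69) and *PSMB9* (1.97 and -0.45) lie on opposite sides of 0 in the 2 lines.

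The transporter subunits came apart in 451Lu-R and fell together in 1205Lu-R. In 451Lu-R, *TAP1* was at 16.3 and 15.6 CPM with DMSO and at 23.8 and 26.4 CPM with corin, a log2 fold change of 0.62 ± 0.10 (FDR 7.87e-06). In 1205Lu-R it went from 57.8 and 64.0 CPM to 35.8 and 38.5 CPM, a log2 fold change of -0.69 ± 0.07 (FDR 6.46e-09). *TAP1* thus moved in opposite directions, and its levels in the lines lay closer together with corin.

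*TAP2*, its partner in the transporter, was at 23.8 and 28.3 CPM with DMSO and at 23.5 and 19.7 CPM with corin in 451Lu-R. The groups did not overlap but nearly touched, and the log2 fold change was -0.28 ± 0.10 (FDR 0.0196). That call was lost with DESeq2 (adjusted p = 0.176), without the second DMSO library (-0.16, FDR 0.195) and without the second corin library (-0.16, FDR 0.181). In 1205Lu-R *TAP2* went from 143.9 and 152 CPM to 86.9 and 94.3 CPM, a log2 fold change of -0.69 ± 0.04 (FDR 5.49e-12). The ratio of *TAP1* to *TAP2* counts went from 0.619 ± 0.094 (SD, n = 2) to 1.18 ± 0.23 in 451Lu-R and from 0.411 ± 0.014 to 0.410 ± 0.0028 in 1205Lu-R. *TAP2* shares 18.9% of its 31-base words with ENSG00000250264, an annotated gene on the same strand with 5.41 to 189 estimated counts per library. With both summed, an alternative added after the data were seen, the log2 fold change was -0.18 in 451Lu-R (FDR 0.0761) and -0.58 in 1205Lu-R (FDR 4.9e-12).

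Tapasin, which bridges the transporter to the heavy chain, fell in both lines. In 451Lu-R, *TAPBP* was at 62.7 and 64.4 CPM with DMSO and at 21.8 and 25.9 CPM with corin. In 1205Lu-R it was at 237 and 226 CPM with DMSO and at 170 and 168 CPM with corin. The log2 fold change was -1.45 ± 0.08 (FDR 1.74e-12) in 451Lu-R, a 2.73-fold fall and the largest fall among the 9 genes in either line, and -0.44 ± 0.03 (FDR 1.55e-10) in 1205Lu-R. *TAP2* and *TAPBP* hold ISRE matches as *TAP1* and *B2M* do. In 451Lu-R *TAP1* and *B2M* rose and *TAPBP* fell, while the fall of *TAP2* lost its call in some fits. The matches of *B2M*, *TAP2* and *TAPBP* lie in annotated exons and those of *TAP1* do not. Whether the element bears on these changes was not tested. Of the 31-base words of *TAPBP*, 19.2% are shared with ENSG00000289100, a long noncoding RNA on the opposite strand that the count table does not list, and whether the counting used strand is not given in the sources used here.

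The inducible proteasome subunits behaved differently from each other. *PSMB8* fell in both lines, from 22.1 and 20.4 CPM to 11.5 and 11.5 CPM in 451Lu-R and from 38.5 and 41.4 CPM to 20.6 and 21.6 CPM in 1205Lu-R. Its log2 fold changes were -0.91 ± 0.11 (FDR 2.23e-07) and -0.90 ± 0.08 (FDR 1.64e-09). *PSMB9* rose in 451Lu-R, from 2.83 and 1.85 CPM to 10.1 and 8.69 CPM, and fell in 1205Lu-R, from 25.6 and 24.98 CPM to 18.6 and 18.2 CPM. Its log2 fold changes were 1.97 ± 0.22 (3.93-fold, FDR 7.18e-08) and -0.45 ± 0.09 (FDR 0.000178). *PSMB9* thereby moved in the same direction as *TAP1* in each line. The 2 genes start 488 bases apart on opposite strands in RefSeq. Over the 8 libraries their log2(CPM + 1) levels had Pearson's r of 0.947, a description of libraries that fall into 4 groups. This value was not particular to neighbors. *PSMB9* had an r of 0.931 with *B2M* on another chromosome, 0.913 with *HLA-B* and 0.903 with *HLA-C*. Within its own cluster it had 0.806 with *TAP2* and 0.421 with *PSMB8*. *PSMB8* shares 15.8% of its 31-base words with its antisense RNA *PSMB8-AS1*, which had 1 to 14 counts per library.

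The constitutive subunits that the inducible ones replace fell as well. *PSMB5*, the constitutive counterpart of *PSMB8*, had log2 fold changes of -1.22 ± 0.05 (FDR 1.61e-14) in 451Lu-R and -1.48 ± 0.05 (FDR 2.72e-17) in 1205Lu-R. *PSMB6*, the counterpart of *PSMB9*, had -1.38 ± 0.05 (FDR 1.17e-15) and -1.36 ± 0.05 (FDR 2.45e-16). The inducible share of each pair, in CPM per kb of transcript, therefore rose even where the inducible subunit fell. The *PSMB8* share of the *PSMB8* and *PSMB5* pair went from 14.3% ± 0.58 (SD, n = 2) to 17.2% ± 0.71 in 451Lu-R and from 18.7% ± 0.59 to 25.7% ± 1.1 in 1205Lu-R. The *PSMB9* share of the *PSMB9* and *PSMB6* pair went from 1.33% ± 0.34 to 12.3% ± 1.5 and from 15.2% ± 0.070 to 25.3% ± 1.2. The remaining inducible subunit, *PSMB10*, moved the other way against its counterpart *PSMB7*, from 8.01% ± 0.61 to 6.56% ± 0.11 and from 8.41% ± 0.67 to 5.55% ± 1.2. No corin library overlapped a DMSO library of its line in any pair. These shares were added after the fold changes had been seen, carry no test, and describe RNA and not assembled proteasomes.

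**Figure D3:**
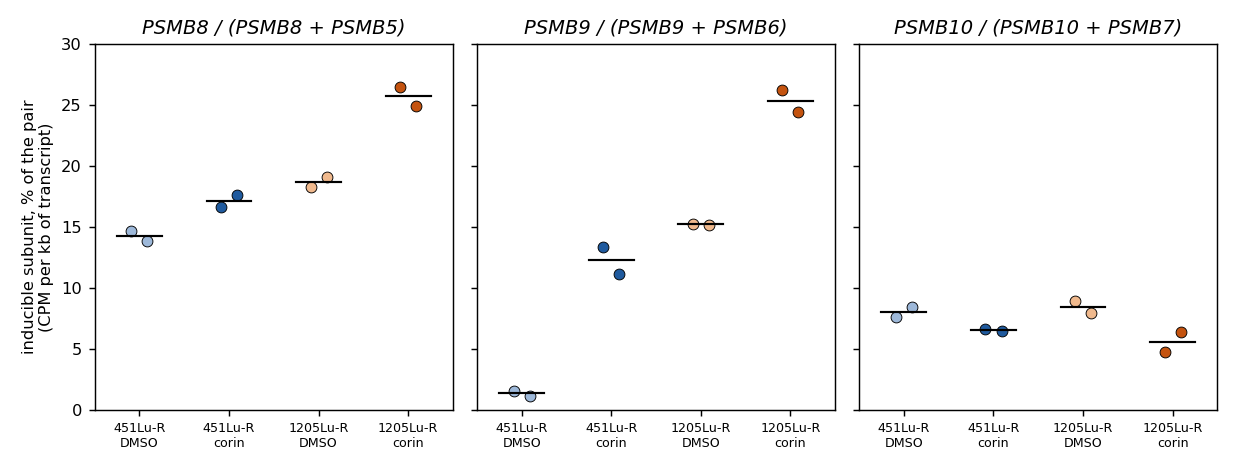
Inducible catalytic subunit as a percentage of the inducible and constitutive pair (vertical axis, from 0, in CPM per kb of transcript) by line and treatment; points are libraries and bars the mean of 2. The share rose with corin for *PSMB8* and *PSMB9* in both lines (*PSMB9* from 1.33% to 12.3% in 451Lu-R) and fell for *PSMB10*.

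Per kb of transcript, the order of levels was alike at its ends in the 4 groups. *B2M* was highest, at 380 ± 2.9 CPM per kb (SD, n = 2) in 451Lu-R with DMSO, 476 ± 0.17 with corin, 601 ± 14 in 1205Lu-R with DMSO and 672 ± 4.8 with corin. *NLRC5* was lowest, at 0.240 ± 0.029, 2.71 ± 0.0033, 0.657 ± 0.028 and 2.13 ± 0.11 CPM per kb. *HLA-C* had rank 2 and *HLA-B* rank 3 in all groups but 1, and in 1205Lu-R with corin *HLA-B* (262 ± 0.48) passed *HLA-C* (204 ± 2.5). The middle of the order changed with corin in both lines. In 451Lu-R *TAPBP* dropped from 18.4 ± 0.34 to 6.91 ± 0.85 CPM per kb and *PSMB9* climbed from 2.30 ± 0.68 to 9.25 ± 0.99, and in 1205Lu-R *PSMB9* (18.1 ± 0.26 with corin) passed *TAP2* (16.1 ± 0.94). Neighbors whose libraries overlapped were *PSMB8* and *TAPBP* in 451Lu-R with DMSO, and *TAP1* and *PSMB9* in 451Lu-R with corin.

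Before corin, 1205Lu-R carried more RNA of the pathway than 451Lu-R. With DMSO all 9 genes were higher in 1205Lu-R, where 75.4% of all 16062 genes differed and 38.2% were higher and 37.2% lower. The median log2 difference was 1.86 for the 9 genes and 0.0 for all genes tested. *PSMB9* differed most, with a log2 difference of 3.42 ± 0.16 (10.7-fold, FDR 1.01e-14), followed by *TAP2* at 2.51 ± 0.07 (FDR 8.32e-19) and *HLA-B* at 2.23 ± 0.04 (FDR 2.56e-21), the 3 genes past 4-fold. Of all genes, 9.38% were called higher at 4-fold and 9.35% lower. The difference in *HLA-B* can depend on how well each line's own alleles match the reference, which was not tested, and with *HLA-B* and *HLA-C* summed it was 1.06 ± 0.03 with DMSO and 1.01 ± 0.03 with corin. *TAP1* (1.93 ± 0.08, FDR 3.35e-15), *TAPBP* (1.86 ± 0.04, FDR 9.3e-20) and *NLRC5* (1.45 ± 0.24, FDR 1.21e-05) followed. *PSMB8* (0.91 ± 0.08, FDR 1.07e-09), *B2M* (0.66 ± 0.03, FDR 2.89e-15) and *HLA-C* (0.45 ± 0.03, FDR 3.67e-11) differed least.

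With corin, 8 of the 9 genes were still higher in 1205Lu-R, where 76.9% of all genes differed and 38.0% were higher and 39.0% lower, and the median was 0.88 against -0.01 for all genes. *NLRC5* was the exception at -0.35 ± 0.11 (FDR 0.00792), a call lost with DESeq2 (adjusted p = 0.149) and without the second 1205Lu-R corin library (-0.30, FDR 0.0629). The distance between the lines was 0.96 ± 0.12 for *PSMB9* and 0.57 ± 0.08 for *TAP1* with corin, and 2.84 ± 0.06 for *TAPBP*. Together with *TAP2* (2.06 ± 0.08), *TAPBP* was past 4-fold, against 8.17% of all genes higher and 8.24% lower. The comparisons between the lines use the same libraries as those of corin with DMSO and add no independent support to them.

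The difference between the lines in the response to corin was tested directly, as the log2 fold change in 1205Lu-R minus that in 451Lu-R. It was called for 7 of the 9 genes, 6 of them lower and 1 higher in 1205Lu-R, where 49.7% of 16062 genes were called, 27.1% lower and 22.6% higher. The median was -0.33 for the 9 genes and -0.01 for all genes. At 4-fold with an FDR under 0.001, *PSMB9* was the 1 gene called, lower in 1205Lu-R, against 2.43% of all genes higher and 3.13% lower. The largest differences were those of *PSMB9* (-2.46 ± 0.22, FDR 4.36e-09), *NLRC5* (-1.80 ± 0.26, FDR 6.67e-06) and *TAP1* (-1.36 ± 0.12, FDR 4.65e-09). *TAPBP* fell less in 1205Lu-R, with a difference of 0.97 ± 0.08 (FDR 3.06e-09). *TAP2* (-0.45 ± 0.12, FDR 0.00287), *HLA-B* (-0.33 ± 0.06, FDR 0.000113) and *B2M* (-0.16 ± 0.04, FDR 0.00112) differed by less. *PSMB8* had a difference of -0.03 with a 95% interval from -0.29 to 0.23 (FDR 0.92), and *HLA-C* one of -0.11 with an interval from -0.19 to -0.02 (FDR 0.0565).

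The small differences depended on how the libraries were scaled. Without TMM factors the median over all genes shifted by 0.21, and 64.0% rather than 45.4% of the called genes were higher in 1205Lu-R. Against that scaling *B2M* turned to 0.046 and *HLA-C* to 0.10, and *HLA-B* (-0.12, FDR 0.112) and *TAP2* (-0.24, FDR 0.0938) lost their calls. Those of *PSMB9*, *NLRC5*, *TAP1* and *TAPBP* kept their direction and call. *TAP2* also lost its call without the first 451Lu-R corin library (-0.29, FDR 0.112).

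The other class I heavy chains moved in both directions. Of 5 tested in 451Lu-R, 3 were higher and 2 lower, and of 5 in 1205Lu-R 4 were higher and 1 lower. For comparison, 451Lu-R had 41.3% of all genes called higher and 38.6% lower, while 1205Lu-R had 40.4% higher and 37.8% lower. The median log2 fold changes of these heavy chains were 0.07 and 0.60, against 0.03 over all genes in each line. *HLA-E*, the ligand of the NKG2A receptor of natural killer cells, went from 123.6 and 123.1 CPM to 266 and 271 CPM in 451Lu-R (log2 fold change 1.10 ± 0.03, FDR 7.18e-17) and rose by 0.60 ± 0.04 in 1205Lu-R (FDR 3.89e-12). *HLA-F* rose by 1.67 ± 0.11 (FDR 3.41e-11) and 1.53 ± 0.14 (FDR 2.81e-09). *MR1*, which presents vitamin B metabolites to mucosal-associated invariant T cells, rose by 1.15 ± 0.17 in 1205Lu-R (FDR 3.85e-06) and changed by -0.30 ± 0.13 in 451Lu-R (FDR 0.0436, and 0.266 with DESeq2). *HFE*, a heavy chain that regulates iron uptake, had a log2 fold change of -1.62 ± 0.17 in 451Lu-R (FDR 4.8e-08) and changed by -0.43 ± 0.15 in 1205Lu-R (FDR 0.0115, and 0.152 with DESeq2).

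Most peptide loading and trimming genes tested were lower with corin. Of 5 tested in 451Lu-R 4 were lower and 1 was not called, and of 6 in 1205Lu-R 4 were lower, 1 higher and 1 not called. Their medians were -0.27 and -0.17 against 0.03 over all genes in each line, where 38.6% and 37.8% of all genes were lower. The chaperone *CANX* (calnexin) had log2 fold changes of -0.59 ± 0.02 (FDR 2.65e-16) and -0.50 ± 0.01 (FDR 1.5e-21), and the peptide-trimming enzyme *ERAP1* had -0.51 ± 0.08 (FDR 1.41e-05) and -0.27 ± 0.05 (FDR 0.000106). The chaperone *CALR* (calreticulin) fell in 451Lu-R (-0.27 ± 0.02, FDR 1.04e-09) and rose in 1205Lu-R (0.10 ± 0.02, FDR 6.16e-05). *ERAP2* was abundant in 1205Lu-R alone, with 4.18 to 12.0 estimated counts in the 4 libraries of 451Lu-R and 1726 to 2197 in those of 1205Lu-R, where corin lowered it slightly (-0.23 ± 0.03, FDR 3.34e-06).

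Most other proteasome genes examined were lower with corin. Of 7 constitutive beta subunits, 6 were lower in 451Lu-R and all 7 in 1205Lu-R, with medians of -0.76 and -0.84, where 38.6% and 37.8% of all genes were lower. The exception was *PSMB1* in 451Lu-R (0.04, FDR 0.421). Among the called were *PSMB3* (-1.04 ± 0.06, FDR 1e-11, and -0.72 ± 0.04, FDR 1.39e-12) and *PSMB2* (-0.76 ± 0.04, FDR 7.82e-13, and -0.99 ± 0.05, FDR 1.3e-14). Of 5 further genes of the immunoproteasome and its activators, 4 were lower in 451Lu-R and 5 in 1205Lu-R (medians -0.90 and -0.88). The exception was the assembly factor *POMP* in 451Lu-R (-0.02, FDR 0.607). *PSMB10* (-1.01 ± 0.14, FDR 1.2e-06, and -1.48 ± 0.15, FDR 8.42e-09) and the interferon-inducible activator subunit *PSME2* (-0.99 ± 0.09, FDR 4.54e-09, and -1.03 ± 0.06, FDR 8.02e-13) fell in both lines, as did *PSME3* and *PSME1*.

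**Figure D4:**
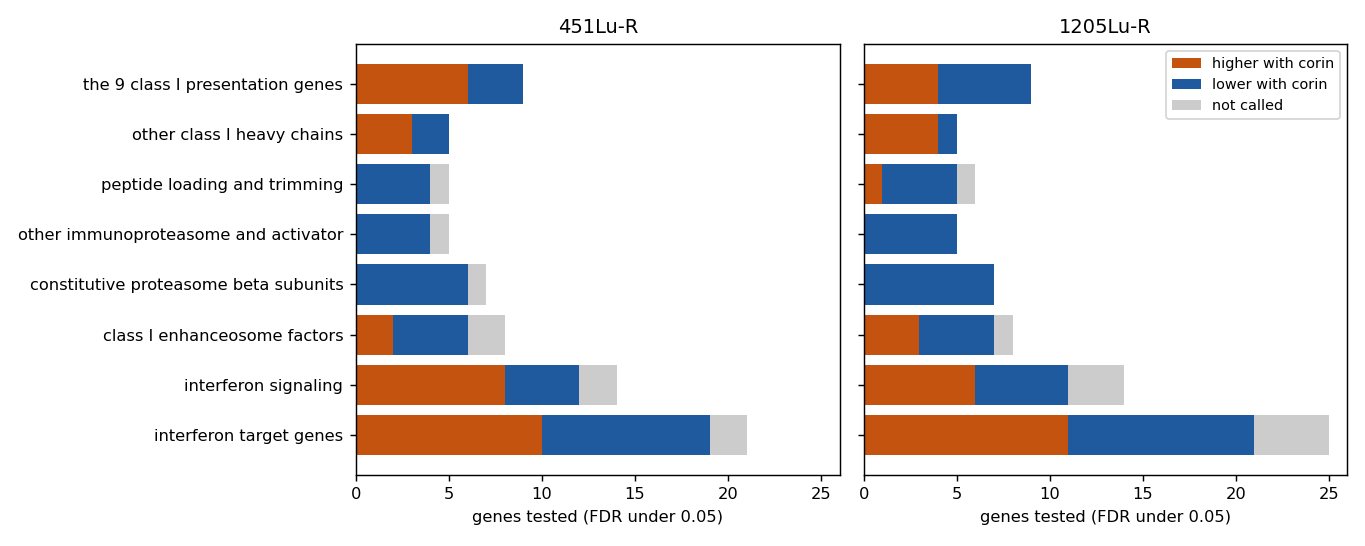
Number of genes tested (horizontal axes) in the 9 class I presentation genes and 7 related lists that were higher with corin (orange), lower (blue) or not called (grey) at an edgeR FDR under 0.05, with 451Lu-R on the left and 1205Lu-R on the right. Of 7 constitutive beta subunits 6 were lower in 451Lu-R and 7 in 1205Lu-R, while the interferon target genes split 10 higher to 9 lower in 451Lu-R and 11 to 10 in 1205Lu-R.

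The genes of the proteins through which NLRC5 acts moved in both directions. Of 8 enhanceosome genes, 2 were higher and 4 lower in 451Lu-R, and 3 were higher and 4 lower in 1205Lu-R. Their medians were -0.19 and -0.17, against 0.03 over all genes in each line. The 2 higher in 451Lu-R, outside the naming rule, were *CREB1* (0.52, FDR 6.03e-08) and *NFYA* (0.61, FDR 6.25e-08). Both also rose in 1205Lu-R (0.20, FDR 0.00331, and 0.36, FDR 1.26e-05). Over all genes, 41.3% were higher and 38.6% lower in 451Lu-R, against 40.4% and 37.8% for 1205Lu-R. *RFX5*, the DNA-binding RFX subunit, had a log2 fold change of 0.01 ± 0.08 in 451Lu-R (FDR 0.944), a value whose sign changed with the scaling, and rose by 0.79 ± 0.07 in 1205Lu-R (FDR 6.93e-10). *RFXANK* fell in both lines (-0.76 ± 0.10, FDR 7.32e-07, and -0.53 ± 0.10, FDR 7.33e-05). *ATF1* had -1.21 ± 0.11 (FDR 2.81e-09) and -0.50 ± 0.14 (FDR 0.0023, and 0.0564 with DESeq2). *NFYC* had -0.75 ± 0.07 (FDR 2.82e-09) and -0.18 ± 0.07 (FDR 0.0216, and 0.228 with DESeq2).

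Interferon genes gave no single direction either. Of 14 signaling genes, 8 were higher and 4 lower in 451Lu-R, and 6 were higher and 5 lower in 1205Lu-R (medians 0.54 and 0.05). The all-gene shares were 41.3% higher and 38.6% lower, and 40.4% and 37.8%, close to the split for 1205Lu-R. Both feedback inhibitors rose. *SOCS3* had 3.83 and 4.82 CPM with DMSO and 23.6 and 27.3 CPM with corin in 451Lu-R (2.52 ± 0.14, FDR 2.74e-12), and rose by 1.78 ± 0.05 in 1205Lu-R (FDR 9.5e-18). In 451Lu-R, *SOCS1* had only 3.0 and 1.0 estimated counts under DMSO but 36.0 and 21.0 under corin (FDR 2.46e-06), too few for a useful fold change, and rose by 1.03 ± 0.23 in 1205Lu-R (FDR 0.000331).

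The receptor subunit *IFNGR2* fell in both lines (-0.96 ± 0.08, FDR 6.3e-10, and -2.02 ± 0.07, FDR 2e-16), as did the kinase *JAK2* (-1.86 ± 0.07, FDR 6.97e-15, and -0.55 ± 0.11, FDR 0.000109). Outside the naming rule and chosen after its values were seen, *IRF1*, a known activator of class I genes, rose by 1.56 ± 0.12 in 451Lu-R (FDR 6.31e-10) and by 0.33 ± 0.06 in 1205Lu-R (FDR 4.75e-05), a difference of -1.26 ± 0.13 (FDR 7.62e-08).

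Of the interferon target genes tested, 10 of 21 were higher and 9 lower in 451Lu-R, and 11 of 25 were higher and 10 lower in 1205Lu-R (medians 0.13 and 0.23), also near those all-gene shares. The 4 targets that the naming rule takes, by the size of the change, all rose in edgeR. The guanylate-binding protein *GBP2* rose by 1.83 ± 0.18 (FDR 1.08e-08) and 4.01 ± 0.17 (FDR 2.7e-15), with a difference between the lines of 2.15 ± 0.30 (FDR 4.23e-06), opposite in sign to those of *PSMB9* and *TAP1*. *IFIT1* rose by 2.58 ± 0.21 (FDR 6.02e-10) and 1.33 ± 0.10 (FDR 7.05e-11), and *IFI6* by 1.86 ± 0.07 (FDR 8.76e-15) and 1.496 ± 0.08 (FDR 2.21e-13). In 451Lu-R, *GBP5* had 1.0 and 1.10 estimated counts under DMSO but 20.8 and 16.5 under corin (FDR 7.26e-06), and 0 and 5.93 against 24.9 and 38.5 in 1205Lu-R (FDR 1.36e-05, and 0.0773 with DESeq2). Others fell in both lines, among them, chosen after their values were seen, *WARS1* (-1.44, FDR 6.51e-17, and -1.72, FDR 2.62e-16), *IFIT3* (-0.97, FDR 1.07e-06, and -1.82, FDR 8.86e-13) and *GBP1* (-1.32, FDR 0.0129, and -0.99, FDR 6.49e-06).

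Markers of other cells moved with corin as well. The 4 dedifferentiation markers summed to 384 to 393 CPM in 451Lu-R with corin and to 784 to 796 CPM in 1205Lu-R with corin, but they moved in opposite directions. *NGFR* went from a mean of 1.01 to 364 CPM in 451Lu-R and from 6.08 to 198 CPM in 1205Lu-R, while in 1205Lu-R *AXL* went from 998 to 464 CPM and *WNT5A* from 201 to 36.6 CPM. The 8 leukocyte markers in the table summed to 63.9 to 67.1 CPM with DMSO and 101.4 to 101.5 CPM with corin in 451Lu-R, and to 12.3 to 12.9 and 18.5 to 19.9 CPM in 1205Lu-R. Most of that was *CD68*, a lysosomal gene not limited to leukocytes, while the lineage-wide marker *PTPRC* had 0 to 3 counts. Myeloid markers were low but higher with corin, as *CSF1R*, which went from 0 and 0 to 30 and 31 counts in 451Lu-R and from 20 and 11 to 48 and 51 in 1205Lu-R. The 3 endothelial markers summed to 1.28 to 1.40 CPM with DMSO and 8.71 to 9.42 CPM with corin in 451Lu-R, and to 11.1 to 11.2 and 23.4 to 27.0 CPM in 1205Lu-R. The 4 keratinocyte markers summed to 20.1 to 20.2 and 20.0 to 24.5 CPM in 451Lu-R, where *KRT14* went from 3 and 4 to 56 and 44 counts, and to 33.7 and 30.5 to 31.02 CPM in 1205Lu-R. The part of these shifts in the class I values was not tested. In bulk RNA, a change in the mixture of cells and a change in RNA per cell cannot be told apart.

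Genes outside the 9 with the most similar levels were sought for 4 of them, by Pearson's r of log2(CPM + 1) over the 8 libraries among 14396 genes. For *HLA-B* these were *ZMIZ2*, *PERP* and *INHBA* (r = 0.998 each), for *B2M* *PHTF2*, *PPP1R12C* and *PHLDA2* (0.998 each), for *TAP1* *B9D2* (0.997), *PDZD2* (0.994) and *CRYBG1* (0.994), and for *NLRC5* *NCOA7*, *MAPK14* and *TPPP3* (0.998 each). With libraries in only 4 groups such values are common, and 73 genes passed an r of 0.99 with *HLA-B*, 79 with *B2M*, 23 with *TAP1* and 50 with *NLRC5*. Among the 9 genes themselves, *HLA-B* was closest to *B2M* (0.996), whereas *NLRC5* had 0.502 with *HLA-B*, 0.541 with *B2M* and -0.55 with *PSMB8*.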

How the data were processed

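RNA-Seq libraries of polyadenylated RNA from 451Lu-R and 1205Lu-R cells were analysed, 2 per group, with groups taken from the labels. Reads were trimmed with trimmomatic and assigned by salmon to GENCODE 32 transcripts by the authors, who summed them to genes and deposited estimated counts per gene without normalization; tool versions are not given in the sources used here. The authors' tables for PLX4032 hold their own log2 fold changes and adjusted p-values and were not used. Names, lengths and overlaps came from GENCODE 44 (GRCh38), which named 34052 of 34228 genes, and promoters from RefSeq.

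Estimated counts were rounded and tested with edgeR 4.0.16 in R 4.3.3 (filterByExpr, TMM, glmQLFit and glmQLFTest, 2-sided, Benjamini-Hochberg over all genes tested, FDR under 0.05). Responses were fitted within a line on 4 libraries, and the interaction and line differences on 8. SE is the absolute log2 fold change over the root of F, and 95% intervals are 1.96 SE to either side. CPM is scaled by TMM factors (0.962 to 1.053), and CPM per kb uses the MANE Select transcript.

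Depth, from 9516687 to 11797788 estimated counts, sets the precision of low genes such as *NLRC5*. Libraries with the same replicate number did not deviate together (correlation -0.023 for 451Lu-R, 0.0079 for 1205Lu-R), so no block was used. Alternatives were DESeq2 1.42.0, library size only, RLE size factors, a replicate block, a filter of 1 count or of a mean of 1 CPM, 1 fit to all libraries, *HLA-B* and *HLA-C* summed, *TAP2* summed with its overlapping gene (added after seeing the data), a 4-fold change with an FDR under 0.001, and leaving out each library. The scripts were tested on simulated data. The 9 genes, the lists and the tests were chosen with earlier results of these data known. From each list the text names up to 4 genes with the largest absolute change in either line, at an FDR under 0.05 and a mean of at least 1 CPM there; the 3 most similar genes were taken among named genes at a mean of at least 1 CPM.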

Additional observations from a re-analysis of the deposited data

Results flagged for a closer look

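The response to corin differed between the lines, by the interaction term of the edgeR fit at an FDR under 0.05, for 7 of the 9 class I presentation genes. It also differed for 18 of the list genes taken by the naming rule, which picks the largest changes with corin in these same libraries. Of all 16062 genes tested, 49.7% were called, a share that is not a like comparison for list genes picked in this way. Values are the log2 fold change in 1205Lu-R minus that in 451Lu-R. For the 9 genes they were -0.33 for *HLA-B*, -0.16 for *B2M*, -1.36 for *TAP1*, -0.45 for *TAP2*, 0.97 for *TAPBP*, -1.80 for *NLRC5* and -2.46 for *PSMB9*. Among heavy chains they were 1.15 for *HFE*, 1.41 for *MR1* and -0.53 for *HLA-E*. For loading and proteasome genes they were 0.047 for *CANX*, 0.33 for *CALR*, -0.30 for *PSMB5*, 0.28 for *PSMB3* and -0.27 for *PSMB2*. The enhanceosome genes had 0.66 for *ATF1*, 0.75 for *RFX5* and 0.53 for *NFYC*. The interferon genes had -2.77 for *SOCS1*, from few counts in 451Lu-R, -0.77 for *SOCS3*, -1.10 for *IFNGR2*, 1.27 for *JAK2*, 2.15 for *GBP2*, -1.29 for *IFIT1* and -0.40 for *IFI6*. Groups of 2 libraries are too small to look for outlying libraries.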

How the results depend on the processing

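Of 656 values of the 9 genes recomputed under alternatives, 638 kept their direction and side of the threshold, 9 lost a call, 3 gained one and 6 changed sign. At 4-fold with an FDR under 0.001, the counts were 1 higher and 0 lower in 451Lu-R, 0 and 0 in 1205Lu-R, 0 higher and 1 lower for the difference in response, 3 higher between the lines with DMSO, and 2 higher and 0 lower with corin. With library size only, 3 genes rather than 6 had a lower response in 1205Lu-R, and the differences of *HLA-C* (0.10), *B2M* (0.046) and *PSMB8* (0.18) changed sign. *PSMB8*, near 0, also changed sign in 3 fits that left out a library (0.014, 0.0051 and 0.024), within a range from -0.099 to 0.024. *RFX5* in 451Lu-R changed sign with library size only (-0.092), with no filter (-0.012), without the second DMSO library (-0.11) and without the first corin library (-0.031), within a range from -0.11 to 0.13 when a library was left out. The count of genes lower in 1205Lu-R with corin, *NLRC5* alone, was 0 with DESeq2 and 0 to 1 when a library was left out. The cause was not tested. The replicate block left every count of the 9 genes as it was except that of lower responses in 1205Lu-R, where *HLA-C* (-0.11, FDR 0.0346) was added. Of 714 values of named list genes, 696 were unchanged in direction and call, 14 lost their call and 4 changed sign. A group that lost a library keeps 1, which is then assumed to vary like the other groups. Depth limits *NLRC5* and *PSMB9* in 451Lu-R with DMSO, at 17.0 to 32.3 estimated counts.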
